A study of Mus musculus with 12 samples.

Results

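Chromatin contacts recovered with an antibody against CTCF were compared between mouse embryonic stem cells (ESC) and neuronal committed cells (NCC). HiChIP joins DNA ends that lie close together in fixed nuclei, as Hi-C does, and then pulls down the fragments that carry the chosen protein. The comparison used 4 of the 12 samples of the series, which are 2 biological replicates of CTCF HiChIP in each cell type, merged by the study into 1 pooled library per cell type, so 2 of the 6 pooled libraries. They were chosen by assay and antibody label, and were set against the same change in the pooled Hi-C libraries. FGFR1 HiChIP, the other pulldown of the series, was used where a difference from a different antibody is shown.

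All cells were of the E14Tg2A mouse line. ESC were grown on gelatin in medium with 100 U/mL leukemia inhibitory factor (LIF), which keeps them undifferentiated. NCC were the same cells after 1 µM retinoic acid in medium without LIF for 48 h, so retinoic acid and the loss of LIF cannot be told apart. The CTCF antibody was ab70303 and the FGFR1 antibody ab10646. The groups are 1 cell line in culture, and the files hold contacts and no expression, so the labelled cell types could not be checked against marker genes. With 1 pooled library per cell type and assay there was no error between replicates and no test. The intervals given are 95% counting intervals, which cover counting error only and not the spread between replicates. The authors removed duplicate reads, but PCR reads without molecular identifiers need not be independent molecules.

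CTCF is a zinc finger protein that binds a long, directional DNA motif and marks many borders of topologically associating domains and many insulators, among them those of imprinted genes and Hox clusters. Cohesin is thought to extrude chromatin loops until it meets bound CTCF, and loops therefore tend to join a pair of motifs that point toward each other, called convergent. CTCF loops have been described in both pluripotent and neural cells, at the borders of developmental genes.

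The letters below show what convergent means here. They come from the pairs of 10 kb bins with the most read pairs between anchors whose CTCF core consensus matches face each other. These pairs were ranked over both CTCF libraries and chosen after their values were seen. The single match within the Hox clusters is given as well. Each line is read from the RefSeq sequence of the mouse genome GRCm38 (mm10) on the strand of the match, 5′ to 3′, with the 12 bases of the match in capitals and 9 flanking bases on each side in lower case. The left match of each pair lies on the plus strand and the right match on the minus strand.
Left of pair 1: tctctagaaCCACCAGGGGGCactctctcc
Right of pair 1: gttttttgaCCACTAGATGGCagtgttctt
Left of pair 2, outer match: cgtctgtcaCCAGCAGGGGGCgggcaagaa
Left of pair 2, inner match: ccaaaatgaCCACCAGGGGGCggttgagca
Right of pair 2: gccctgtaaCCACCAGAGGGCgcccatcgc
Left of pair 3: atctgttcaCCAGCAGAGGGCatcagatct
Right of pair 3: cgaatccctCCAGTAGGTGGCgatgttcac
Left of pair 4: ctcccattgCCACTAGGGGGCagcaacgca
Right of pair 4: gcttctcatCCAGCAGAGGGCgccatttcc
Hoxb cluster: agccctgtcCCACTAGGGGGCcctagaagg

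Pair 1 joined intergenic sequence at chr11:55389928-55389957 and chr11:55445001-55445030. The nearest start sites were those of Sparc, a matrix glycoprotein gene, on the left and of Atox1, a copper chaperone gene, on the right. Its 10 kb bins held 8 CTCF read pairs in ESC and 6 in NCC, beside 51 and 53 in Hi-C. Pair 2 lay in intergenic sequence near Ptma, which encodes prothymosin alpha, at chr1:86501181-86501210 and chr1:86501774-86501803 on the left and chr1:86532540-86532569 on the right. It held 11 and 6 CTCF read pairs, while no Hi-C interaction had both of its anchor midpoints in these bins. Pair 3 joined an intron of Cbr3, a carbonyl reductase gene, at chr16:93685969-93685998, with an intron of Dop1b at chr16:93785992-93786021, and held 5 read pairs in each cell type. Pair 4 joined coding sequence of Hip1r, which encodes an endocytic adaptor, at chr5:124000976-124001005, with an intron of Abcb9, a lysosomal peptide transporter gene, at chr5:124085004-124085033, and held 3 and 5. Each of these pairs of bins held CTCF read pairs in both cell types, with counts too small to order ESC and NCC. The counts are of all read pairs between the bins. Those between anchors with facing matches were 12, 10, 10 and 8 for pairs 1 to 4, over both CTCF libraries. The Hoxb match, at chr11:96265866-96265895 on the minus strand, was intergenic, 5.58 kb from the start site of Hoxb9, and no anchor with ends covered it in any of the 6 libraries.

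On the 19 autosomes, CTCF HiChIP held 867902 read pairs between different anchors in ESC and 835720 in NCC, against 16340299 and 16958264 in Hi-C. An interaction is a pair of anchors with at least 1 read pair, and 83.3% of the ESC and 86.4% of the NCC interactions held only 1. Anchors are stretches of restriction fragments that the authors' pipeline called in each library on its own. The CTCF anchors covered 433 mb in ESC and 441 mb in NCC but shared only 189 mb, 43.6% and 42.8% of each, while the Hi-C anchors shared 73.3% and 73.4%. Identical CTCF anchors numbered 27064, or 16.2% of the ESC and 16.3% of the NCC anchors. The covered length is therefore given beside most of the places compared between the CTCF libraries. All log2 values below are NCC over ESC with the number of read pairs between different anchors made equal across the libraries, while counts of ends and read pairs are unscaled. In pooled cells, more cells with a contact and more contacts per cell cannot be told apart.

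The first question was how far apart the joined anchors lay. Per 100 read pairs between anchors, CTCF HiChIP held 60.8 under 500 kb in ESC and 58.0 in NCC, 16.2 and 16.6 from 500 kb to 10 mb, 1.45 and 2.12 at 50 mb and over, and 13.7 and 15.4 between chromosomes. Contacts under 500 kb were thus fewer in NCC, and the very long and inter-chromosomal ones more frequent. The log2 change under 500 kb was -0.07 (interval -0.07 to -0.07), and it lay between -0.08 and -0.06 in each class from under 20 kb to 200 to 500 kb. At 50 mb and over it was 0.54 (0.51 to 0.57), and between chromosomes 0.16 (0.15 to 0.18).

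Most of this pattern was shared with Hi-C, where the change was -0.04 under 500 kb, 0.61 at 50 mb and over, and 0.18 between chromosomes. The direction of CTCF HiChIP and Hi-C differed at middle distances. From 500 kb to 10 mb, the log2 change was 0.03 (0.02 to 0.04) in CTCF HiChIP and -0.04 in Hi-C, a difference of 0.07 (0.06 to 0.08), and in the class from 1 to 2 mb the difference was 0.11 (0.09 to 0.13). Among pairs within a chromosome, the 500 kb to 10 mb share changed more upward in CTCF HiChIP than in Hi-C in 18 of 19 autosomes, and the share under 500 kb lay below Hi-C in 18 of 19. Under 500 kb the difference was -0.03 (-0.03 to -0.02), and at 50 mb and over -0.07 (-0.10 to -0.03). FGFR1 HiChIP changed by 0.06 from 500 kb to 10 mb, above CTCF HiChIP, which differed from it by -0.03 (-0.04 to -0.02).

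**Figure D1:**
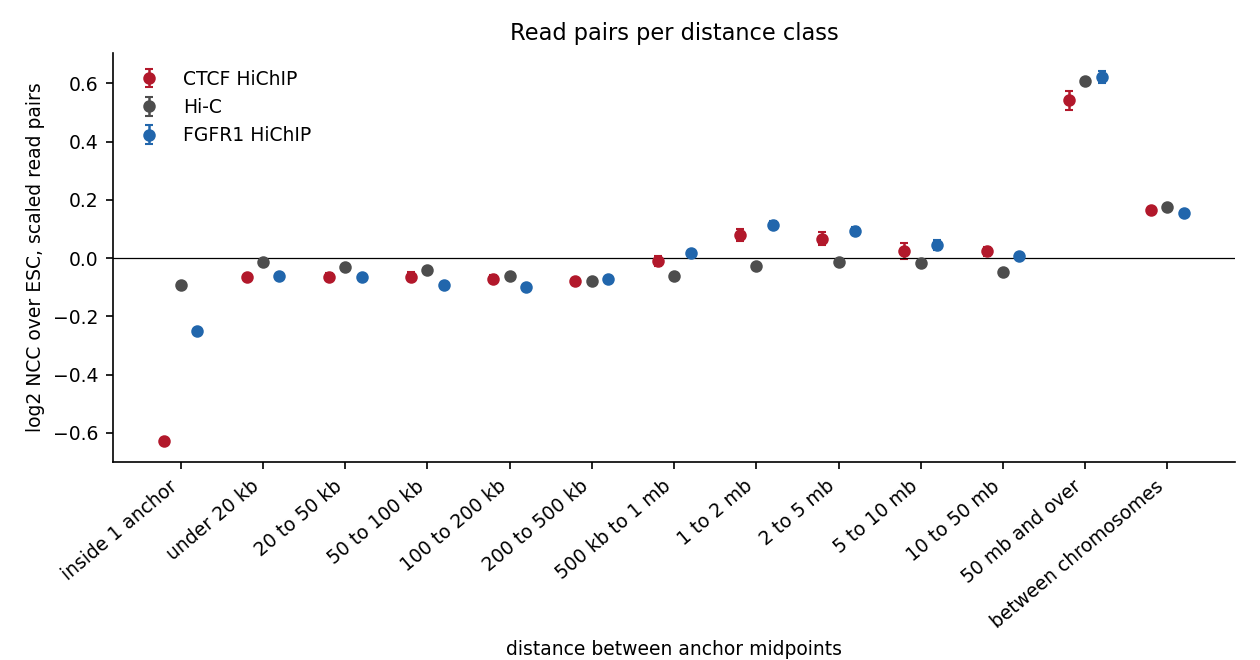
Each point is the log2 ratio of NCC over ESC read pairs in a class of distance between anchor midpoints, scaled to pairs between different anchors, for CTCF HiChIP, Hi-C and FGFR1 HiChIP, with 95% counting intervals. The CTCF point inside 1 anchor sits at -0.63, far below Hi-C at -0.09, while both rise to 0.54 and 0.61 at 50 mb and over.

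The direction of these changes depended on what was counted. With pairs inside 1 anchor in the total, the change under 500 kb was 0.08 and its difference from Hi-C 0.10, and the differences from Hi-C at 50 mb and over and between chromosomes turned to 0.07 and 0.12. With only interactions of at least 2 read pairs, the change was 0.01 under 500 kb, -0.03 from 500 kb to 10 mb, -0.98 at 50 mb and over and -0.51 between chromosomes. The long-range increase was therefore seen only with interactions of a single read pair counted, which are most interactions at this depth. In the deeper Hi-C libraries the same filter left an increase at 50 mb and over, but not between chromosomes. What the filter removes depends on depth, so it cannot separate depth from a change of the contacts. With identical anchors only, the change was 0.43 at 50 mb and over and -0.00 between chromosomes, and the difference from Hi-C under 500 kb turned to 0.02.

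Read pairs with both ends inside 1 anchor differed strongly between the CTCF libraries. They made up 342819 of all read pairs in ESC and 213695 in NCC, or 28.3% (28.2 to 28.4) and 20.4% (20.3 to 20.4). Per read pair between anchors the log2 change was -0.63 (-0.64 to -0.62), against -0.09 in Hi-C and -0.25 in FGFR1 HiChIP, and the difference from Hi-C was -0.53 (-0.54 to -0.52). The ESC CTCF library stood apart here, since the other 5 libraries held between 17.4% and 20.8% of their read pairs inside 1 anchor. The change was negative in all 19 autosomes, between -0.69 and -0.50, and below that of Hi-C in each. On the identical anchors, with the same scaling, it was -0.52, against -0.16 in Hi-C and -0.45 in FGFR1 HiChIP, while the CTCF ends of these anchors to other anchors changed by 0.03. Of the 1726 identical anchors with at least 10 such pairs over both CTCF libraries, 1184 (68.6%) were lower in NCC, where the share was 62.8% in Hi-C and 72.01% in FGFR1 HiChIP. Such pairs join neighbouring restriction fragments or are fragments that were cut and joined again, which these files do not separate, and the part of the pulldown or of the ligation in this difference was not tested.

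The inside pairs were spread thinly. In ESC 115470 of 167001 anchors (69.1%) held at least 1, in NCC 93363 of 165818 (56.3%), and the median among those anchors was 2 in each. Anchors with at least 10 numbered 3465 in ESC and 1126 in NCC. The change was smaller at anchors with a match, -0.40 (-0.44 to -0.37), than at those without, -0.64 (-0.65 to -0.63). It was also smaller at anchors with a protein-coding start site, -0.39 (-0.41 to -0.36), than at the others, -0.65 (-0.66 to -0.64). Anchor length moved with it, from -0.80 in anchors of 1 to 2 kb to -0.29 in those of 5 kb and over, and the part of length in the other contrasts was not tested. The anchor with the most inside pairs, chr17:39842517-39849607, held 737 in ESC and 827 in NCC and overlapped Rn18s-rs5, a ribosomal RNA pseudogene in RefSeq. Among the next anchors, 1 at chr2:98661543-98668221, over the predicted genes Gm10801 and Gm10800, held 193 in ESC and 35 in NCC. No filter for mappability or repeats was applied to these anchors, and the part of mapping in such counts was not tested.

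The second question was where in the genome CTCF ends changed. Each read pair between anchors gave 2 ends, placed in the bin of the anchor midpoint. Among 14507 bins of 100 kb with at least 100 ends over both libraries, 2789 (19.2%) were higher in NCC by at least 1.5-fold and 2813 (19.4%) were lower. Set against the same change in Hi-C, 2922 (20.1%) lay above by at least 1.5-fold and 3155 (21.7%) below. Among 9281 bins of 10 kb with at least 50 ends, 1078 (11.6%) were higher by at least 2-fold and 1563 (16.8%) lower, and 1632 (17.6%) lay above Hi-C and 2001 (21.6%) below.

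These calls followed the anchors more than they followed Hi-C. Across the 14507 bins of 100 kb, the CTCF change had a Pearson correlation of 0.85 with the change in covered length, 0.08 with the Hi-C change and 0.18 with the FGFR1 change. These bins are not independent, and the CTCF ends and the covered length come from the same libraries. The spread of the log2 change had an SD of 0.73, against a median counting SE of 0.25. Of the 2789 bins that were higher, 335 (12%) were also higher in Hi-C and 292 lower, where 6.37% of all these bins were higher in Hi-C. Of the 2813 that were lower, 207 (7.36%) were also lower in Hi-C, where 6.82% of all were. In the 7120 bins whose CTCF covered length was at most 25% longer in either library, a choice made after seeing the data, 552 (7.75%) were higher and 531 (7.46%) lower. The covered length thus moved with most of the calls, and whether a newly covered place gained CTCF or only passed the caller's threshold was not tested.

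**Figure D2:**
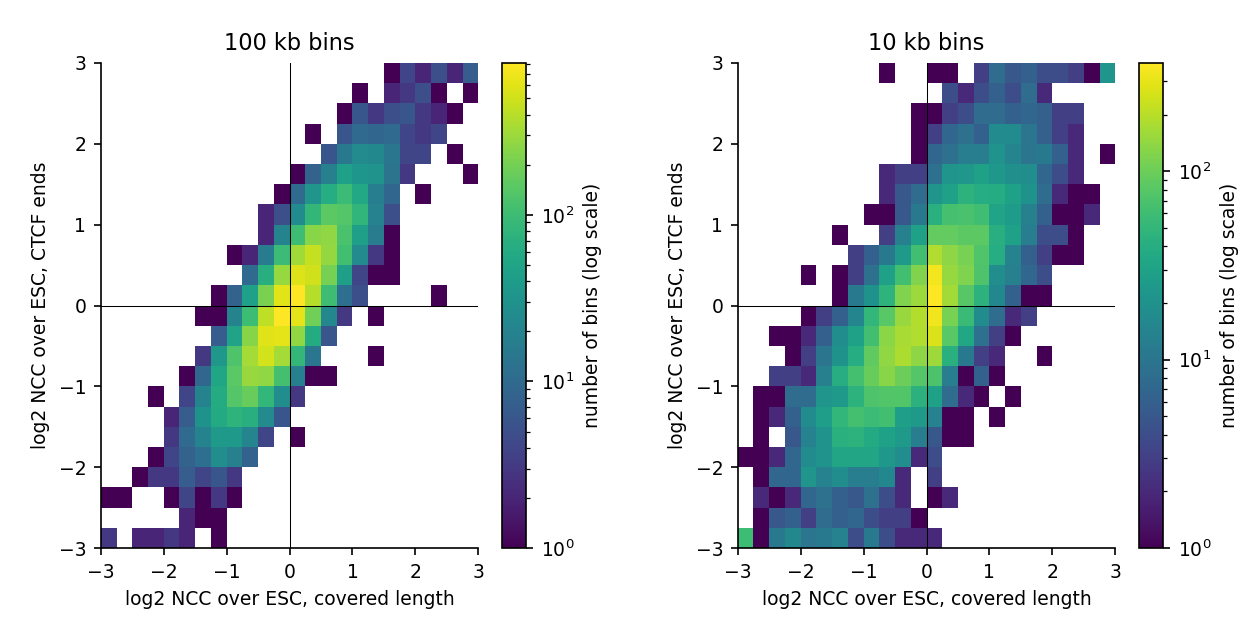
Both panels count bins (colour, log scale) by the log2 NCC over ESC ratio of covered anchor length (horizontal axis) and of CTCF HiChIP ends (vertical axis), for 100 kb bins on the left and 10 kb bins on the right, with values past 3 drawn at the edge. The cloud lies along the diagonal, with a Pearson correlation of 0.85 for 100 kb and 0.70 for 10 kb bins.

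The bins ranked furthest from Hi-C were mostly places where the Hi-C anchors differed. In each of the 10 highest 100 kb bins the Hi-C covered length was smaller in NCC, and in 9 of the 10 lowest it was larger. The highest, chr3:73100001-73200000, without a protein-coding gene, went from 36 to 83 CTCF ends while Hi-C went from 459 to 16 ends as its covered length dropped from 33.5 to 2.03 kb. A bin at Epha3, an ephrin receptor gene, chr16:63700001-63800000, went from 9 to 100 CTCF ends over 5.61 and 28.4 kb, a log2 change of 3.53 (2.44 to 4.62). The exception at the lower end was chr3:100000001-100100000 at Spag17, a gene of the sperm flagellum and cilia, which went from 96 to 4 CTCF ends over 27.6 and 2.94 kb while Hi-C held 893 and 1131. Among 10 kb bins, 1 at Cbx2, a Polycomb gene, chr11:119020001-119030000, went from 15 to 53 CTCF ends over 2.79 and 6.51 kb and from 710 to 191 Hi-C ends.

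With the covered length alike by the same measure in CTCF HiChIP and in Hi-C, 5734 bins remained, of which 452 lay above Hi-C and 538 below. In that set the bin that ranked highest was chr17:70500001-70600000 within Dlgap1, a postsynaptic scaffold gene. It held 53 ends in 21.9 kb in ESC and 141 in 24.9 kb in NCC, a log2 change of 1.47 (0.94 to 1.99), against -0.41 in Hi-C. The bin at Dock9, an activator of the small GTPase Cdc42, chr14:121700001-121800000, went from 77 to 182 ends over 23.1 and 24.8 kb, a change of 1.30 (0.87 to 1.72) against -0.25 in Hi-C. Bins at Ttc17, at Ror1, a receptor tyrosine kinase gene, and at Pde4b, a phosphodiesterase gene, changed by 1.21, 1.15 and 1.26, while Hi-C changed by -0.29, -0.21 and -0.09. The lower end, where no filter for mappability or repeats was applied either, held chr9:3000001-3100000. This bin, the start of the sequenced part of that chromosome with only predicted genes, went from 101 to 31 ends while Hi-C held 522 and 753. The lower end also held chr2:18700001-18800000 at Spag6, a sperm flagellum gene, with 96 and 33 ends and a change of -1.49 (-2.07 to -0.90) against 0.31 in Hi-C. Another of its bins was chr4:150400001-150500000 at Rere, a transcriptional corepressor gene, with 104 and 47 and 0.57 in Hi-C. Among 10 kb bins with like covered length, 1 at Ppp1r15b, a stress-response phosphatase subunit gene, chr1:133130001-133140000, went from 10 to 58 ends in 3.59 and 4.44 kb, and 1 at Glipr2, chr4:43970001-43980000, from 53 to 11 in 3.74 and 3.76 kb.

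Base composition ordered the bins. Over all 100 kb bins, ranked by GC content into quintiles, the log2 change of CTCF ends ran from 0.33 (0.32 to 0.34) in the lowest GC quintile through 0.16, 0.06 and -0.04 to -0.16 (-0.16 to -0.15) in the highest. The lowest quintile held 8.47% of the CTCF ends in ESC and 10.7% in NCC, and the highest 36.5% and 32.8%. Hi-C ran the other way at the low end, with -0.18 in the lowest and 0.01 in the highest quintile, and FGFR1 HiChIP ran from 0.45 to -0.26. Covered length moved in the same direction as the CTCF ends, and ends per covered kb went from 2.47 to 2.60 in the lowest and from 5.55 to 5.04 in the highest quintile. Within chromosomes, the lowest GC quintile changed more upward than the highest in 19 of 19 autosomes in CTCF HiChIP and in FGFR1 HiChIP, but in only 3 of 19 in Hi-C. Of the tested bins in the lowest quintile 36.6% were higher in NCC by 1.5-fold and 15.2% lower, against 10.9% and 23.0% in the highest. Only 978 of the 4791 bins of the lowest quintile reached the minimum of ends, against 4539 of 4794 in the highest. A bin can reach it through the library where it is high, so these shares do not compare the quintiles.

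Gene density followed the same order. Bins without a protein-coding start site changed by 0.09 (0.09 to 0.10), those with 1 or 2 by -0.05, those with 3 to 5 by -0.14 and those with at least 6 by -0.13 (-0.15 to -0.11). The CTCF share of gene-poor, AT-rich bins was thus higher in NCC. FGFR1 HiChIP ran from 0.15 without a start site to -0.31 with at least 6, and Hi-C from 0.02 to -0.08, so Hi-C moved in the same direction here. The part of the pulldown, of library preparation and of chromatin in these shifts was not tested. Whole autosomes ran from -0.13 on chromosome 7 to 0.13 on chromosome 14.

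**Figure D3:**
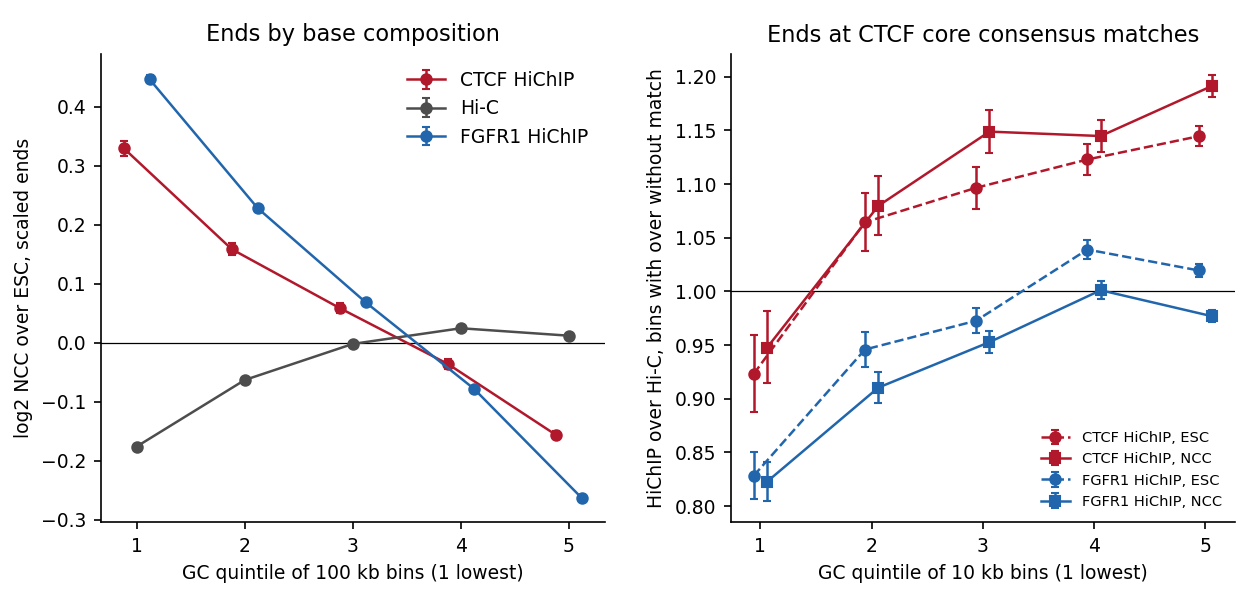
On the left, points give the log2 NCC over ESC ratio of ends in GC quintiles of 100 kb bins for CTCF HiChIP, Hi-C and FGFR1 HiChIP; on the right, points give the HiChIP share over the Hi-C share in 10 kb bins with a CTCF core consensus match, divided by the same in bins without, in each GC quintile. Bars are 95% counting intervals, and the CTCF lines on the right lie above 1 in quintiles 2 to 5, with NCC at 1.19 and ESC at 1.14 in quintile 5.

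The third question was whether CTCF motifs marked the changes. The CTCF core consensus, 12 bases searched on both strands, had 12245 matches on the autosomes, 1 per 196 kb. At least 1 match lay in 11574 of the 239715 bins of 10 kb with sequence, or 4.83%. CTCF anchors were denser in matches than the genome, with 1 per 95.2 kb of anchor in ESC and 1 per 93.4 kb in NCC. Hi-C anchors held 1 per 124 kb and 1 per 125 kb, and FGFR1 anchors 1 per 119 kb and 1 per 138 kb. CTCF anchors thus held more matches per length than the anchors of the other assays, in both cell types. Among CTCF anchors with at least 20 ends, which were 15642 in ESC and 12991 in NCC, 8.18% (7.76 to 8.62) and 9.48% (8.99 to 10.0) held a match. A fixed number of ends is a stricter limit in the shallower NCC library, and the anchors it kept there were longer, with a median of 3743 against 3526.5 bp, so these shares are not a comparison of the cell types. A match is a run of letters and not a mapped binding site.

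Whole bins with a match gave a smaller picture. They held 8.24% of the CTCF ends in ESC and 8.0% in NCC, a log2 change of -0.04 (-0.05 to -0.03), against -0.00 in Hi-C and -0.19 in FGFR1 HiChIP. With 1 match the CTCF change was -0.03, with 2 it was -0.14, and with at least 3, in 31 bins, -0.22 (-0.38 to -0.05). Bins with matches are richer in GC, with a mean of 45.1% against 41.8%, so they were also compared within GC quintiles of 10 kb bins. There, the CTCF share over the Hi-C share was divided by the same ratio in bins without a match. This excess was 1.14 (1.14 to 1.15) in ESC and 1.19 (1.18 to 1.2) in NCC in the highest quintile, a log2 change of 0.06 (0.04 to 0.07). It was 0.92 and 0.95 in the lowest quintile and 1.10 and 1.15 in the middle one. In FGFR1 HiChIP the excess of the highest quintile was 1.02 in ESC and 0.98 in NCC.

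Distance to the nearest match sharpened this. Ends within 2 kb of a match were 4.61% of the CTCF ends in ESC and 4.65% in NCC, a log2 change of 0.01 (-0.00 to 0.03). Ends 2 to 5 kb away changed by -0.11 (-0.13 to -0.10) and those 5 to 10 kb away by -0.11. In Hi-C the same classes changed by -0.03, 0.01 and 0.02, and in FGFR1 HiChIP by -0.23, -0.16 and -0.16. The CTCF share within 2 kb of a match was 1.13 times the Hi-C share in ESC and 1.16 times in NCC, but only 0.83 and 0.76 times at 2 to 5 kb. Within 2 kb of a match the CTCF share thus changed little. Further away it was lower in NCC out to 100 kb, with -0.09 at 10 to 20 kb and -0.02 at 50 to 100 kb. At 100 kb and over it changed by 0.10, against 0.15 in FGFR1 HiChIP and -0.01 in Hi-C. In ESC, anchors with a match had a median length of 4565.5 bp in Hi-C and 2581 bp in CTCF HiChIP. The part of GC content and of anchor length in these values was not tested.

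Orientation was read from interactions of 20 kb to 2 mb whose anchors both held matches of a single strand. In CTCF HiChIP, 473 of 1307 such read pairs were convergent in ESC, 36.2% (33.6 to 38.8), and 572 of 1413 in NCC, 40.5% (38.0 to 43.1). Divergent pairs were 17% and 14.9%, and tandem pairs 46.8% and 44.6%. Convergent pairs were more frequent in NCC by 4.29 percentage points (0.64 to 7.94). Hi-C went from 31.7% to 34.3%, a difference of 2.54 points (1.91 to 3.18). The CTCF difference exceeded that of Hi-C by 1.75 points with an interval of -1.96 to 5.46, so a change beyond Hi-C was not detectable at this depth. CTCF HiChIP lay above Hi-C in both cell types, by 4.46 points (1.81 to 7.10) in ESC and 6.20 (3.61 to 8.80) in NCC. FGFR1 HiChIP held 36.0% and 38.6%. The CTCF share differed from the FGFR1 share by 0.24 points in ESC and 1.90 in NCC, both within counting error. A convergent excess particular to the CTCF pulldown was thus not detectable over this whole range. From 100 to 500 kb the CTCF share went from 36.1% to 42.8%, by 6.66 points (1.27 to 12.1), which exceeded Hi-C by 5.89 (0.41 to 11.4). The FGFR1 share at this distance was 40.3% in ESC and 40.2% in NCC. The CTCF share differed from it by -4.22 points in ESC and 2.61 in NCC, both within counting error. From 500 kb to 2 mb the CTCF share changed by -4.02 points (-14.6 to 6.51). There it lay above the FGFR1 share by 11.1 points (1.85 to 20.3) in ESC, while the difference in NCC was within counting error.

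Interactions seen more than once were convergent more often. Counting interactions and not read pairs, 33.3% of 970 in ESC and 36.0% of 1080 in NCC were convergent. With at least 2 read pairs the shares were 43.3% (88 of 203, 36.7 to 50.2) and 53.2% (118 of 222, 46.6 to 59.6). With at least 4 they were 55.9% (19 of 34) and 67.9% (19 of 28), with intervals that overlap. Single matches also gave a direction. Of the ends at an anchor with matches of 1 strand, 59.0% (58.5 to 59.5) in ESC and 60.05% (59.6 to 60.5) in NCC ran to the side the motif points to, against 56.8% and 57.8% in Hi-C. In FGFR1 HiChIP these shares were 58.1% and 59.3%. The CTCF share lay above that of FGFR1 by 0.87 points (0.27 to 1.46) in ESC and 0.78 (0.19 to 1.37) in NCC. The difference between cell types was 1.08 points (0.39 to 1.76) in CTCF HiChIP and 0.97 (0.84 to 1.10) in Hi-C. In FGFR1 HiChIP it was 1.16 (0.68 to 1.65).

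**Figure D4:**
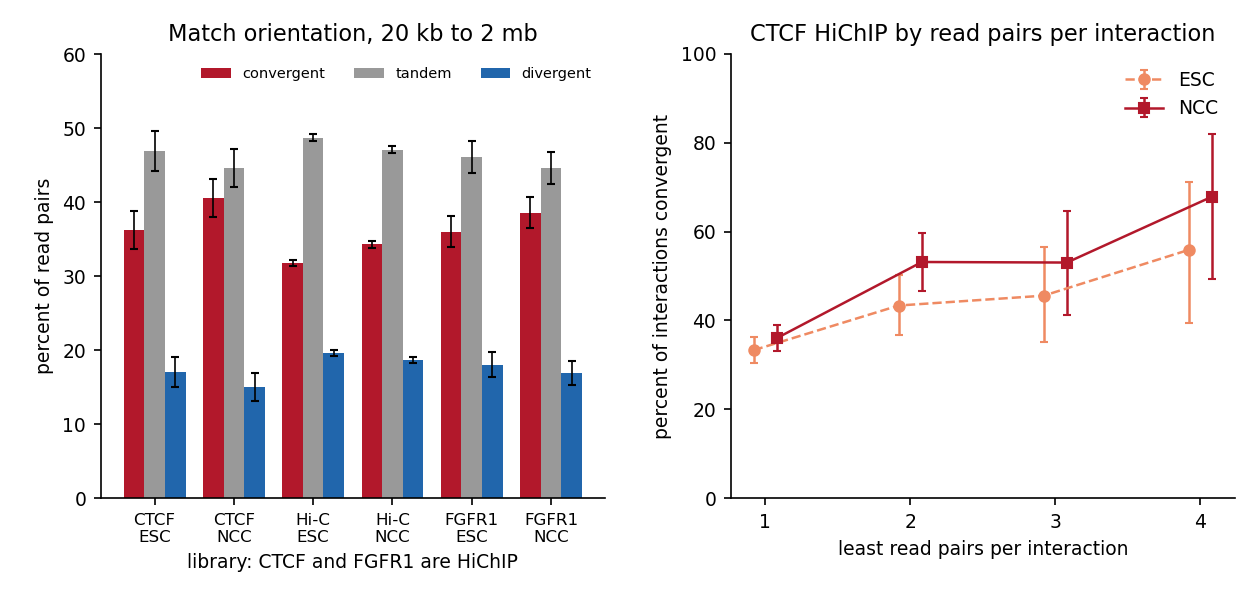
On the left, bars give the percent of read pairs 20 kb to 2 mb apart that are convergent, tandem or divergent by the strand of the core consensus matches in both anchors, per pooled library; on the right, points give the percent of CTCF interactions that are convergent, by the least number of read pairs per interaction. Error bars are 95% Wilson intervals, and the convergent share of NCC lies above that of ESC in each assay on the left (40.5% and 36.2% in CTCF HiChIP).

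Few single contacts recurred between the cell types. Of the pairs of 10 kb bins at least 20 kb apart with at least 3 CTCF read pairs, 7592 were found in ESC and 6555 in NCC. They shared 564, or 7.43% of the ESC and 8.60% of the NCC list, close to FGFR1 HiChIP with 10.3% and 8.73%, where Hi-C, with far deeper libraries, shared 43.2% and 43.1%. Both bins held a match in 3.0% (2.64 to 3.41) of the ESC and 3.14% (2.75 to 3.59) of the NCC list, against 1.07% and 1.09% in Hi-C and 1.57% and 1.33% in FGFR1 HiChIP, whose lists were cut at the same number of read pairs in deeper libraries. The pairs found only in the ESC list changed in Hi-C by -0.14 (-0.16 to -0.13), and those only in the NCC list by 0.02 (0.01 to 0.04). Those in both lists changed by -0.07 (-0.11 to -0.04). In FGFR1 HiChIP the changes were -0.47 for ESC only, -0.21 for NCC only and -0.42 for both. At least 1 read pair was found in the other cell type for 33.8% of the ESC and 36.6% of the NCC list.

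Gene windows were 5 bins of 10 kb around each protein-coding start site. Of 16372 windows with at least 50 CTCF ends, 3036 (18.5%) were higher in NCC by at least 1.5-fold and 4277 (26.1%) lower, with a median log2 change of -0.09. Against this, the 21 measured pluripotency genes had 2 higher and 6 lower, the 22 genes of the retinoic acid response 6 and 3, and the 22 neural genes 4 and 7. The 13 genes for CTCF, cohesin and its regulators had 3 and 1, with a median of 0.18, and the 23 loci with a known CTCF boundary or insulator 6 and 5. The 54 clustered protocadherins had 10 and 7, and the 76 ribosomal protein genes 10 and 17. These counts are a description to be read beside the share of all windows, and windows of neighbouring genes share ends.

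For the windows past a call, ends are given with the covered length in ESC and NCC, and the Hi-C value is its log2 change in the same window.

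Among pluripotency genes, the window of Fgf4, a growth factor gene of ESC, held 108 CTCF ends over 14.8 kb in ESC and 20 over 3.24 kb in NCC. Its log2 change was -2.38 (-3.11 to -1.65), against -0.13 in Hi-C. The window of Klf4, a pluripotency factor, held 75 ends over 18.4 kb and 35 over 13.3 kb, with 0.11 in Hi-C. That of Lin28a, which encodes an RNA-binding protein of stem cells, held 77 over 18.3 kb and 37 over 10.3 kb, with -0.05 in Hi-C. Both were lower by 2-fold or more. Tdgf1, a co-receptor of Nodal, went the other way with 60 ends over 8.44 kb and 126 over 17 kb, a change of 1.12 (0.63 to 1.62) against -0.31 in Hi-C. Pou5f1, which encodes OCT4, held 128 ends over 12.7 kb and 173 over 16.2 kb, a 1.40-fold difference that did not reach the call, with -0.49 in Hi-C. Sox2 held 110 ends in each cell type, Nanog 39 and 48, and Esrrb 54 and 53, all within counting error, while Hi-C changed by -0.21, -0.07 and 0.66. The core factors thus did not move together in CTCF ends. Over the union of the pluripotency windows the change was -0.20 (-0.31 to -0.09), close to that of Hi-C at -0.21, but it was 0.43 when only the bin of the start site was counted.

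Genes of the retinoic acid response moved in both directions. Crabp1, which encodes a cytosolic retinoic acid-binding protein, went from 12 ends over 6.27 kb to 72 over 14.2 kb, a log2 change of 2.64 (1.68 to 3.60), while its Hi-C ends were 1506 and 1504. Nr2f1, an orphan nuclear receptor gene, went from 17 ends over 8.86 kb to 50 over 13.9 kb, with -0.91 in Hi-C. Crabp2, which encodes the protein that carries retinoic acid to its receptors, held 73 over 7.61 kb and 44 over 6.07 kb, where Hi-C went the opposite way by 0.69. Stra6, a retinol transporter gene, held 122 over 18.0 kb and 73 over 9.33 kb, with -0.17 in Hi-C. Both were lower in CTCF ends by at least 1.5-fold. Cyp26a1, which encodes the enzyme that breaks down retinoic acid, held 80 and 86 over 14.4 and 14.5 kb, with 0.23 in Hi-C, and Rarb 3 and 4, too few for a fold. The union of the list changed by 0.15 (0.04 to 0.25) against 0.04 in Hi-C.

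Of the neural genes, Irx3, a homeobox gene of the neural tube, went from 46 ends over 12.1 kb to 112 over 24.2 kb, with 0.10 in Hi-C. Pax3, a factor of the dorsal neural tube, went from 114 over 19.2 kb to 34 over 8.22 kb, with -0.28 in Hi-C. Olig2, a factor of motor neuron and oligodendrocyte progenitors, went from 85 over 16.8 kb to 36 over 4.11 kb, with -0.10 in Hi-C. The change was as plain in Tubb3, a neuronal tubulin gene, with 84 over 14.9 kb and 38 over 6.04 kb, and -0.05 in Hi-C. Covered length was lower in NCC in each of the 3 lower windows and higher in that of Irx3. Pax6 held 106 and 70 ends over 16.6 and 12.5 kb, below the 1.5-fold call, with -0.30 in Hi-C. The union of the neural list changed by -0.14 (-0.26 to -0.01) against -0.16 in Hi-C.

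The Ctcf gene itself lay in a window with 87 ends over 18.1 kb in ESC and 161 over 24.3 kb in NCC, a log2 change of 0.94 (0.53 to 1.35) against 0.35 in Hi-C. Esco2, which encodes an acetyltransferase of cohesin, went from 45 over 12.5 kb to 75 over 17.1 kb, with -0.51 in Hi-C. Pds5b, which encodes a cohesin regulator, went from 20 over 7.62 kb to 42 over 12.3 kb, with -0.24 in Hi-C. These windows were higher in CTCF ends, while Yy1, a zinc finger factor at enhancer-promoter contacts, went from 61 over 10.7 kb to 23 over 6.87 kb, with 0.14 in Hi-C. Smc3, which encodes a core subunit of cohesin, held 61 and 57 over 14.03 and 8.84 kb, with 0.15 in Hi-C. The union of this list changed by 0.28 (0.14 to 0.43) over 190.1 and 188 kb, and was higher than Hi-C by 0.32 (0.17 to 0.47).

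Loci known for CTCF insulators gave called windows in both directions. H19, beside the imprinting control region that binds CTCF on 1 parental allele, went from 54 ends over 12.8 kb to 111 over 16.4 kb, a log2 change of 1.09 (0.58 to 1.61), and Hi-C changed by 0.69 there. Dlk1, another imprinted gene, went from 15 over 3.10 kb to 63 over 13.6 kb, with a Hi-C change of -0.04. Pvt1, a long non-coding RNA gene beside Myc, went from 117 over 15.8 kb to 20 over 6.75 kb, a change of -2.49 (-3.22 to -1.76) against -0.44 in Hi-C. The neighbouring window of Myc held 40 and 46 ends over 7.26 and 7.54 kb while Hi-C changed by -0.85. Six2, a developmental homeobox gene, went from 102 over 15.6 kb to 33 over 5.89 kb, with -0.32 in Hi-C. The called windows thus differed in covered length too. The union of the list changed by -0.12 (-0.25 to -0.00) against 0.01 in Hi-C, or by -0.47 with only the bin of the start site.

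Genes with a ribosomal protein symbol, taken by name as genes used in every cell, also held called windows in both directions, from -1.58 to 1.84. Rps27l went from 31 ends over 6.08 kb to 100 over 15.5 kb and Rpl31 from 25 over 6.77 kb to 86 over 14.2 kb, with 0.14 and 0.19 in Hi-C. Rps12 went from 127 over 17.3 kb to 41 over 10.9 kb and Rpsa from 75 over 16.1 kb to 30 over 7.05 kb, where Hi-C changed by 0.28 and 0.39. The union changed by -0.15 (-0.21 to -0.09) against -0.06 in Hi-C, but by 0.11 with only the bin of the start site. Changes of single windows by 2-fold or more were thus found in every list.

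The 4 Hox clusters, which encode factors of the body axis that retinoic acid induces, were measured in all 39 genes. Of their windows 9 were higher and 4 lower in NCC, with a median of 0.20 against -0.09 over all windows, but these windows overlap, and with only the bin of each start site the union changed by -0.02 in place of 0.22 (0.08 to 0.35). Hoxb held 5 of the higher windows and none of the lower. Its union went from 352 to 446 ends over 51.6 and 55.7 kb, a change of 0.40 (0.16 to 0.63), against -0.14 in Hi-C and -0.26 in FGFR1 HiChIP. The difference from Hi-C was 0.54 (0.30 to 0.78). The window shared by Hoxb7 and Hoxb8 went from 75 ends over 12.6 kb to 145 over 16.2 kb while Hi-C went from 3035 to 2606. Hoxb9 went from 95 over 14.8 kb to 170 over 19.2 kb, with -0.39 in Hi-C. The bin of its start site itself went from 20 ends over 3.22 kb to 0 over 0.684 kb. The bins on its 2 sides went from 24 to 58 and from 17 to 44. Hoxb1 held 98 and 139 over 15.9 and 19.5 kb, and Hoxb13, at the other end of the cluster, 121 and 88 over 15.7 and 10.6 kb, neither past the call, with 0.04 and -0.33 in Hi-C.

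Hoxa differed along its length. The window of Hoxa5 held 94 and 120 ends, Hoxa7 124 and 88, and Hoxa13 97 and 108, none past the call, with 0.09, -0.07 and -0.20 in Hi-C. Hoxa9 went from 136 over 18.9 kb to 83 over 14.2 kb, a change of -0.66 (-1.07 to -0.24), and Hoxa10 from 157 over 20.7 kb to 86 over 17 kb, with -0.25 and -0.34 in Hi-C. Bin by bin, bins 1 to 6 of the cluster each held more CTCF ends in NCC, and the 6 bins from the Hoxa3 start site through Hoxa13 each held fewer, with 30 and 25, then 18 and 25 in the bins between them. Hi-C shared this pattern in part, since after scaling its ends were higher in 5 of the first 6 bins and lower in 5 of the 6 bins from Hoxa3 through Hoxa13, with 991 and 677 ends in the Hoxa3 bin. In the bins with the Hoxa13 start site and next to it, the CTCF ends were 45 and 15, then 0 and 58, over 5.69 and 5.39 kb, then 1.84 and 6.54 kb. Hi-C went from 678 to 267 and from 137 to 412 there.

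Hoxd1 went from 81 ends over 13.5 kb to 23 over 7.93 kb, a change of -1.76 (-2.45 to -1.07) with -0.51 in Hi-C, and Hoxd13 held 87 and 84 with -0.56 in Hi-C. Hoxc4 went from 79 over 13.4 kb to 132 over 12.2 kb, with -0.10 in Hi-C, and Hoxc13 held 94 and 67, with 0.04. Of these, Hoxc4 was higher without a longer covered length. The union changed by 0.41 (0.17 to 0.66) in Hoxa, above Hi-C by 0.30 (0.05 to 0.56), by 0.11 (-0.17 to 0.40) in Hoxc and by -0.32 (-0.63 to -0.00) in Hoxd, where Hi-C changed by -0.29.

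**Figure D5:**
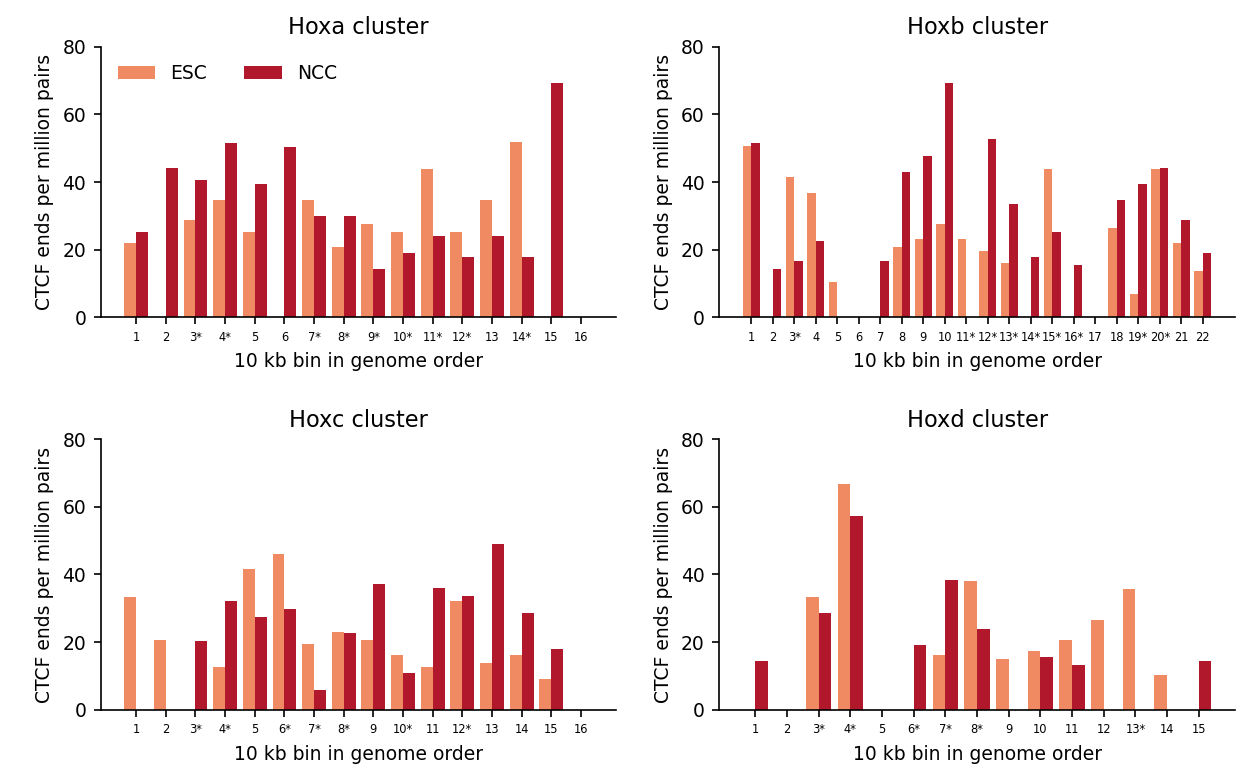
Bars give CTCF HiChIP ends, scaled to the read pairs between anchors of each library, in consecutive 10 kb bins across the Hoxa, Hoxb, Hoxc and Hoxd clusters, with ESC and NCC side by side and an asterisk at bins with a Hox start site. In Hoxa the NCC bars are the higher ones in bins 1 to 6 and the lower ones in bins 9 to 14. In Hoxb bins 8 to 10 and 12 to 14 are higher in NCC, while bins 3 to 5, 11 and 15 are lower.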

How the data were processed

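CTCF HiChIP, FGFR1 HiChIP and Hi-C libraries of ESC and NCC were analysed, each from 2 biological replicates. The authors mapped the reads to mm10 and filtered them with HiC-Pro at default settings, and hichipper called anchors from all reads of each library (mode EACH,ALL) and counted read pairs per pair of anchors. The deposited files hold these read pair counts for the merged replicates, without a limit on hichipper's q-value, so each value is a whole number of read pairs in 1 pooled library. Anchors were called for each library separately, on restriction fragments, and their lengths and positions therefore differ between libraries.

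From these counts, read pairs inside 1 anchor were set apart and read pairs between different anchors on the 19 autosomes were placed by anchor midpoint in bins of 10 kb and 100 kb and in distance classes. Each library was divided by its number of such pairs, which was 867902 in ESC and 835720 in NCC for CTCF HiChIP, far below Hi-C. Fold calls needed at least 100 ends per 100 kb bin and 1.5-fold, at least 50 ends per 10 kb bin and 2-fold, and at least 50 ends per 50 kb gene window and 1.5-fold. A bin with fewer than 3 ends in a library was given a floor of 3 for its fold, and a gene window at 0 had no fold. Intervals of 95% use the Poisson variance of the counts for log2 ratios, with read pairs that have both ends in a group allowed for, and are Wilson intervals for shares. There was no test, since no replicate was separate. Start sites were from GENCODE and the genome sequence from RefSeq for GRCm38, in which the CTCF core consensus was searched on both strands.

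Named regions were the 10 bins of each size furthest above and below Hi-C by the bound of the interval nearest 0, and named genes the 3 highest and 3 lowest of each list by the same rank, together with a fixed set of Hox, pluripotency and retinoic acid genes. The regions, lists and genes were chosen with earlier results of these data known. Named outside this rule, after their values were seen, were the bins with like covered length, the convergent pairs and the anchors with the most inside pairs. Alternatives counted inside pairs, left out single read pairs, pairs between chromosomes or the fullest 1% of bins, doubled the minimum, changed the fold, placed ends in every bin an anchor overlaps, added chromosome X, used a longer consensus of 14 bases, or kept only like-covered bins or identical anchors. Python 3.11.15 with numpy 2.4.6, pandas 2.3.3, scipy 1.17.1 and matplotlib 3.10.9 was used, and the scripts were tested on simulated data. Some genes that the rule names are not reported here.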

Additional observations from a re-analysis of the deposited data

How the results depend on the processing

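No paired analysis was possible because the replicates of each group were merged into 1 library before deposit, and for the same reason no replicate was left out in turn. Over 35 results, 192 alternative values were computed, of which 97 kept their direction and stayed within counting error or 1.5-fold, 80 moved and 15 turned. With chromosome X added, all 19 values computed stayed. The cause of the others was not tested, except that a doubled minimum or a stricter filter leaves fewer bins.

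With pairs inside 1 anchor counted in the total, the log2 change under 500 kb turned to 0.083 and its difference from Hi-C to 0.10. The other classes moved to 0.19 with a difference of 0.20 from 500 kb to 10 mb, 0.69 and 0.066 at 50 mb and over, 0.32 and 0.12 between chromosomes, and -0.48 and -0.40 inside 1 anchor. The differences at 50 mb and over and between chromosomes thus turned. Of the 10 kb bins, 3004 were then higher, 4306 lower, 4255 above Hi-C and 5054 below, and the consensus bins lay -0.011 from Hi-C. With pairs within chromosomes only, the change was -0.041 under 500 kb, 0.062 from 500 kb to 10 mb and -0.60 inside 1 anchor, and 596 bins of 10 kb were higher, 914 lower, 939 above Hi-C and 1186 below.

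With interactions of at least 2 read pairs only, the change under 500 kb turned to 0.0075 and its difference from Hi-C to 0.0067. From 500 kb to 10 mb these turned to -0.034 and -0.037. At 50 mb and over the change turned to -0.98, with a difference of -1.42, and between chromosomes to -0.51, with -0.33. Inside 1 anchor they were -0.65 and -0.59. Of the 100 kb bins, 175 were higher, 314 lower, 213 above Hi-C and 287 below, and of the 10 kb bins 25, 39, 49 and 43. The consensus bins lay -0.019 from Hi-C. The convergent share was 44.1% in ESC and 54.2% in NCC, a difference of 10.2 points. The unions changed by -0.26 for neural, 0.36 for Hox and 0.61 for CTCF and cohesin genes.

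Without the fullest 1% of bins, the change inside 1 anchor was -0.64, with a difference from Hi-C of -0.55. With ends in every bin an anchor overlaps, 2337 bins of 10 kb were higher, 3103 lower, 2902 above Hi-C and 3457 below, and the consensus bins lay -0.068 from Hi-C. With the minimum doubled, the counts were 610, 1103, 669 and 1099 for 100 kb and 26, 57, 53 and 72 for 10 kb bins. A fold of 2 left 1145, 1045, 1453 and 1399 bins of 100 kb, and a fold of 1.5 gave 1956 higher, 2713 lower and 2520 above Hi-C for 10 kb. With the 14 base consensus, 43.3% of NCC pairs were convergent. Pairs of bins with at least 5 read pairs numbered 715 in ESC, 590 in NCC and 69 in both. With only the bin of the start site, the union turned to 0.43 for pluripotency, -0.024 for Hox and 0.11 for ribosomal protein genes, and was -0.47 for boundary loci.

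The last alternatives were chosen after seeing the data. In bins with like covered length in all 4 CTCF and Hi-C libraries, 390 bins of 100 kb were higher, 434 lower, 452 above Hi-C and 538 below, and 98, 130, 278 and 286 of 10 kb, and the consensus bins lay -0.0068 from Hi-C. With interactions between identical anchors only, each library scaled to its own such read pairs, the change was -0.023 under 500 kb, where its difference from Hi-C turned to 0.022. The difference was 0.060 from 500 kb to 10 mb. At 50 mb and over the change was 0.43 with a difference of -0.18. Between chromosomes the change turned to -0.0010 with a difference of -0.18, and inside 1 anchor these were -0.58 and -0.48.

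Depth limits what can be said of single contacts. Most CTCF interactions held 1 read pair. Of 179111 bins of 10 kb with a CTCF end, only 9281 reached 50 ends over both libraries. The median there was 33 ends in ESC and 30 in NCC.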
